A study of Mus musculus with 2 samples.

Results

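Ionotropic glutamate receptors are ion channels that open when glutamate binds, and their subunits are encoded by a family of related genes. The 9 genes described here were taken by symbol from the GENCODE M1 annotation of the mm9 mouse genome, which holds 22367 protein-coding genes. They are Gria1, Gria2 and Gria4, which encode AMPA receptor subunits, Grin1, Grin2a and Grin2b, which encode NMDA receptor subunits, Grik2 and Grik5, which encode kainate receptor subunits, and Grid1, which encodes a delta receptor subunit. Their R-loop peaks were read from 1 list made in primary neural stem/progenitor cells (NSPCs), which were cultured from the frontal brain of C57BL/6 mice at postnatal day 7. Before DRIP the cells had been exposed for 48 h to 0.5 μM aphidicolin, which inhibits DNA polymerases and slows replication, a treatment named in the methods and not in the sample labels. RNA:DNA hybrids were precipitated from digested genomic DNA with the S9.6 antibody and sequenced (DRIP-seq), and 3 DRIP reactions of each biological replicate were pooled for a library. Libraries of 3 biological replicates lie behind the list of 22132 peaks, and an input library was made without antibody. Peaks are listed by position alone, without read counts, signal or replicates, so depth is unknown, no replicate error can be given and no difference was tested. Cultured NSPCs can hold cells at several stages, and the list does not show in which cells a peak formed.

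Glutamate carries most of the fast excitatory signals in the brain. AMPA receptors pass the fast current, NMDA receptors open when glutamate and glycine bind while the membrane is depolarised, and kainate receptors modulate transmission on both sides of the synapse. Delta receptors belong to the family by sequence and act mainly as adhesion partners across the synapse. An R-loop is a stretch of DNA in which RNA pairs with the template strand and leaves the other strand single, and such structures form more readily where the RNA is rich in G. Many subunit genes are very long and lie in gene-poor regions, which makes their bodies a large target for any mark spread over the genome.

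R-loop peaks were found in 4 of the 9 genes, and 8 of the 14 peaks lay in Grik5. Gria1 held 3 peaks, Grid1 held 2 and Grin2b held 1, while no peak overlapped Gria2, Gria4, Grin1, Grin2a or Grik2. A gene was counted when it shared at least 1 bp with a peak, and by this measure 39.6% of the 22367 protein-coding genes held a peak against 44.4% of the 9 receptor genes. Longer genes held a peak more often, with 44.1% of genes of 10 to 30 kb, 53.4% of genes of 30 to 100 kb, 62.5% of genes of 100 to 300 kb and 68.2% of genes of 300 kb or more. At the shares of their own length classes, 5.69 of the 9 receptor genes would hold a peak. Of the 6 genes of 300 kb or more, 3 held a peak. These counts lie close to those of other genes of like length.

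**Figure D1:**
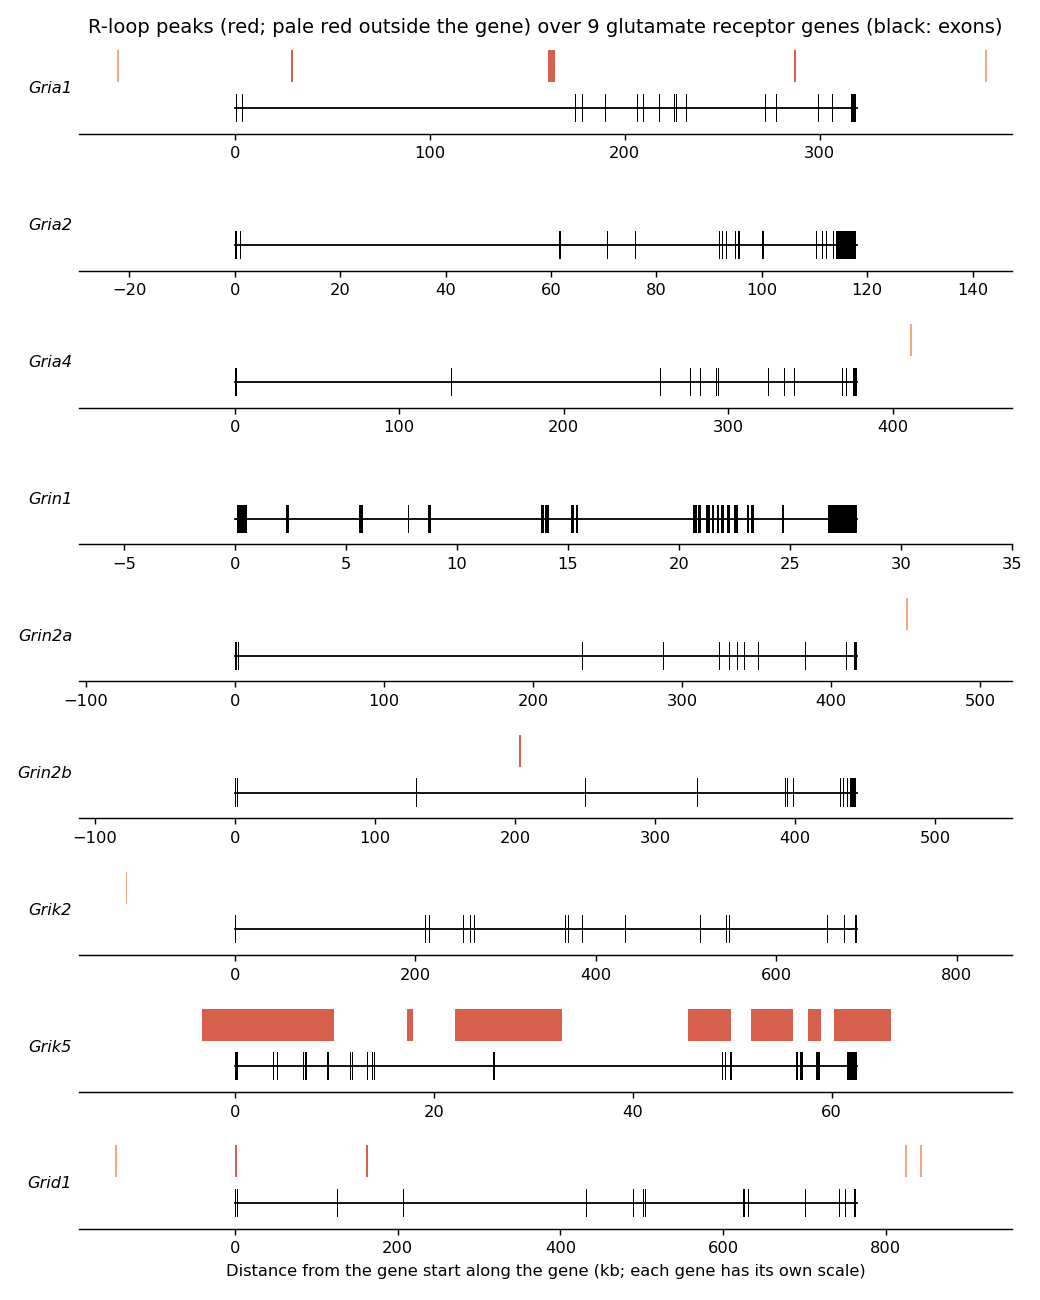
Each row shows 1 gene from its start (0) along its direction of transcription in kb, with exons of the longest coding transcript as black bars, peaks that overlap the gene in red and peaks outside it in pale red, each gene on its own scale and narrow peaks drawn at a minimum width. Grik5 is covered by 8 peaks over 62.5 kb, whereas Gria2, Gria4, Grin1, Grin2a and Grik2 have no peak inside the gene.

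The receptor genes spanned 3219 kb together, of which 40.3 kb or 1.25% lay in peaks. Grik5 alone supplied 33.4 kb of this, which is 82.9% of the peaked bases. Without Grik5, the most covered of the 9 genes, 6.88 kb or 0.218% of the other 8 genes lay in peaks. Over all protein-coding genes, with none left out, 3.81% of bases lay in peaks when summed over genes, beside 1.25% over the 9 genes. This share falls with gene length, to 0.796% over all 528 genes of 300 kb or more, beside 0.229% over the 6 receptor genes of that length. The median share of a gene of that length was 0.142%, so single genes with 0.134% in Grin2b or 0.169% in Grid1 were close to the middle of their class. The median share of a gene covered by peaks was 0 over the 9 genes. Peaks ranged from 388 bp in Grid1 to 13.2 kb in Grik5. Of the 14 peaks, 6 overlapped an exon of the longest coding transcript and 8 lay within 1 intron, and 6 were narrower than 1 kb.

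**Figure D2:**
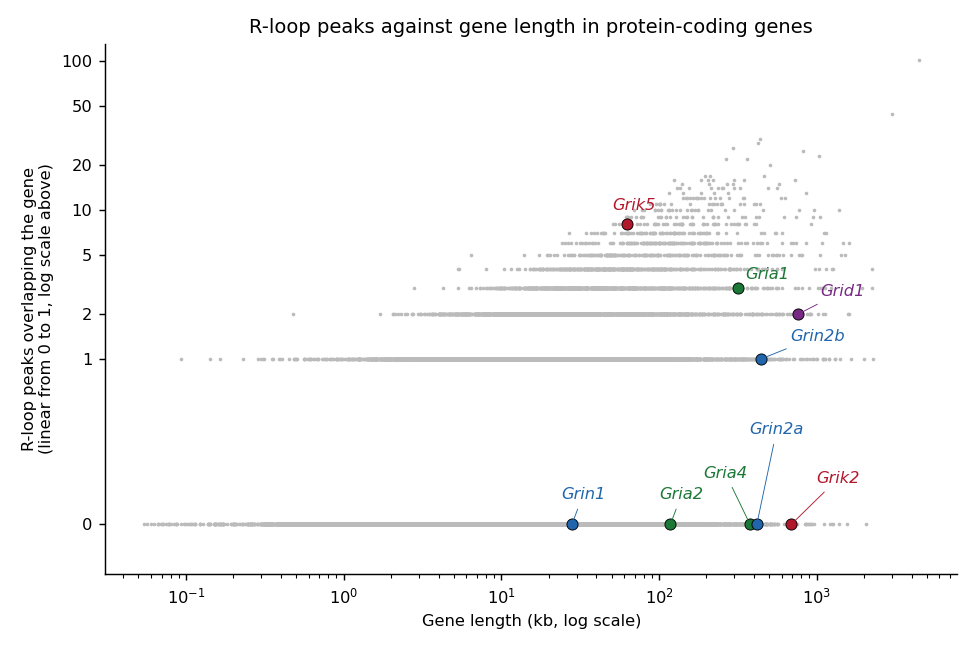
The number of peaks overlapping a gene is plotted against gene length (kb, log scale), with protein-coding genes in grey and the 9 receptor genes in colour (AMPA green, NMDA blue, kainate red, delta purple). Grik5 stands at 8 peaks in 62.5 kb, and Gria4, Grin2a and Grik2 stand at 0 although each is longer than 300 kb.

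The sequences below show what lies inside the peaks. They are stretches of 100 bases of mm9 outside untranslated regions, written 5′ to 3′ on the coding strand of the gene. In the first set, capitals mark perfect tandem repeats of a unit of 2 to 4 bases that run for at least 16 bp.
Gria1 peak 1, chr11:56854049-56854148, plus strand: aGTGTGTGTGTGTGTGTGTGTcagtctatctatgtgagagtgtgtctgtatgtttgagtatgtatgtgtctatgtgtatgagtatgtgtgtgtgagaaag
Gria1 peak 2, chr11:56988707-56988806, plus strand: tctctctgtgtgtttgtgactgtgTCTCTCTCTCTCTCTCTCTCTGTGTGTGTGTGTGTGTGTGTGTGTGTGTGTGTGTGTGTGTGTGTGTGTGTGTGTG
Gria1 peak 3, chr11:57112178-57112277, plus strand: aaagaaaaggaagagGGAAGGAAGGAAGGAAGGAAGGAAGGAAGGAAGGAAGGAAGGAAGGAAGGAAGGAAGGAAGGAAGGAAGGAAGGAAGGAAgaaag
Grin2b peak 1, chr6:135920060-135920159, minus strand: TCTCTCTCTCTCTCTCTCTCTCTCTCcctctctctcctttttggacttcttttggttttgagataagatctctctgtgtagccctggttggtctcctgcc
Grik5 peak 1, chr7:25854074-25854173, minus strand: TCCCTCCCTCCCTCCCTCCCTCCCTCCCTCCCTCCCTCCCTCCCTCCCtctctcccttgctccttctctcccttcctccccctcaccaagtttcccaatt
Grid1 peak 1, chr14:35634025-35634124, plus strand: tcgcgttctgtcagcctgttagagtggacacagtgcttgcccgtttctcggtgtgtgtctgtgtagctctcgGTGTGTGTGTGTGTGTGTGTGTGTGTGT

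The next set holds the stretch richest in G relative to C, taken in the narrowest peak and in the 1 kb before the start of 3 genes, and capitals mark runs of at least 3 G. The Grik5 stretch lay inside a peak, while the Grid1 and Gria2 stretches before the start did not, though a Grid1 peak began 335 bp after its start. These 3 genes were picked from the 9, and not all starts had stretches as rich in G. The one before the Gria4 start held 24 G and 19 C and no such run. With 1 of the 9 starts in a peak, a relation of these stretches to peaks was not tested.
Grid1 peak 2, chr14:35794760-35794859, plus strand: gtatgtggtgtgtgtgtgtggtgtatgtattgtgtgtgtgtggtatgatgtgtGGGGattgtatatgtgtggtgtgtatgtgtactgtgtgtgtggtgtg
Grid1 before the start, chr14:35632901-35633000, plus strand: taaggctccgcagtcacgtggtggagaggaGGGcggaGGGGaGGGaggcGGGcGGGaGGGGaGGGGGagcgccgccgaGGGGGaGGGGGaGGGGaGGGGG
Grik5 before the start, chr7:25857907-25858006, minus strand: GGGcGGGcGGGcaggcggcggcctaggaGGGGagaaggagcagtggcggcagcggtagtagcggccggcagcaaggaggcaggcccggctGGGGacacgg
Gria2 before the start, chr3:80606773-80606872, minus strand: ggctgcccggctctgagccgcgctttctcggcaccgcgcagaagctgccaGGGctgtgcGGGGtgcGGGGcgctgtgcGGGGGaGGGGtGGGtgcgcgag

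Among the AMPA receptor genes, peaks were found in Gria1 and in neither Gria2 nor Gria4. Gria1 (ENSMUSG00000020524) encodes GluA1, a subunit brought to synapses when they strengthen, and lies on the plus strand at chr11:56824889-57143746, over 319 kb. Its 3 peaks covered 1.57% of the gene, and 12.3% of the 528 genes of 300 kb or more were covered as much. The gene start itself lay 28.8 kb from the nearest peak.

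All 3 Gria1 peaks lay in introns of the transcript Gria1-004, which has 16 exons. Peak 1, at chr11:56853722-56854396, was 675 bp wide and lay in intron 2, with its midpoint 29.2 kb from the start. Its coding strand held far more G than C, with a GC skew of 0.695, where GC skew is the difference of G and C over their sum. The printed stretch of this peak shows GT and TG units that are broken again and again by other bases, and the longest perfect run was 20 bp. Peak 2, at chr11:56985397-56989148, lay in the same intron, 162 kb from the start, and was 3.75 kb wide. It held a run of 56 bp of TG, preceded by a shorter one of TC, and elsewhere a tract of 52 bp that was purine throughout. Peak 3, at chr11:57111783-57112356, was 574 bp wide and lay in intron 13, 287 kb from the start. It held 20 copies of GGAA, an 80 bp run, and 1.17% of all peaks held a run as long. Every base of the printed stretch of peak 3 is a purine.

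Gria2 (ENSMUSG00000033981) encodes GluA2, whose edited form keeps calcium out of the channel. It lies on the minus strand at chr3:80488858-80606713, over 118 kb, and held no peak. The nearest peak lay 110 kb upstream, at chr3:80716511-80717931, over the start of Glrb, which encodes the beta subunit of the glycine receptor. On the other side the next peak was 685 kb away. Gria2 thus lay in a peak-free interval of 913 kb with no other whole protein-coding gene, and 97.8% of the intervals between neighbouring peaks were shorter.

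Gria4 (ENSMUSG00000025892) encodes GluA4, an AMPA subunit used early in development and by interneurons. It lies on the minus strand at chr9:4417899-4796234, over 378 kb, and held no peak. Its nearest peak was 32.2 kb beyond the end of the gene, at chr9:4384563-4385709, in 8430410K20Rik, and upstream the next peak was 2388 kb away. The interval without a peak measured 2799 kb and held no unsequenced bases. Of 22111 intervals between neighbouring peaks, 52 were as long. Besides Gria4 it held 6 whole protein-coding genes, Casp1, Casp4 and Casp12, which encode inflammatory caspases, and Ddi1, Dync2h1 and Pdgfd. The median interval between neighbouring peaks was 23.6 kb.

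Of the NMDA receptor genes, Grin2b held 1 peak and Grin1 and Grin2a held none. Grin1 (ENSMUSG00000026959) encodes GluN1, the glycine-binding subunit present in every NMDA receptor, and lies on the minus strand at chr2:25146701-25174707. At 28.0 kb it is the shortest of the 9 genes, and it lies among many others, with 22 protein-coding genes within 100 kb, of which 8 held a peak. The nearest peak was 31.2 kb upstream, at chr2:25205955-25221226, and was 15.3 kb wide, over Man1b1, Dpp7 and Uap1l1. On the other side the next peak was 35.0 kb away. The peak-free interval around Grin1 was 94.3 kb, the shortest of the 5 genes without a peak, and held 5 other whole protein-coding genes, Anapc2, Lrrc26, Ssna1, Tmem210 and Tprn. Although Grin1 had no peak, 23 peaks lay within 500 kb of it. None of the 9 annotated transcript starts of Grin1 lay in a peak.

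Grin2a (ENSMUSG00000059003) encodes GluN2A, the glutamate-binding subunit that gains in share as the forebrain matures. It lies on the minus strand at chr16:9577803-9995014, over 417 kb. A peak of 0.426 kb at chr16:9544418-9544843, in no annotated gene, lay 33.0 kb beyond its end, and the next peak upstream was 279 kb away. The interval without a peak was 729 kb and also held Atf7ip2 and Rpl39l.

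Grin2b (ENSMUSG00000030209) encodes GluN2B, the glutamate-binding subunit that prevails in the embryonic and newborn forebrain. It lies on the minus strand at chr6:135679844-136123529, over 444 kb, and held 1 peak at chr6:135919823-135920415. The peak was 593 bp wide, covered 0.134% of the gene, and lay in intron 4, 203 kb from the start. Of the genes of 300 kb or more, 51.5% were covered as much. Its coding strand was rich in C, with a GC skew of -0.348, and held a TC run of 26 bp and a tract of pyrimidines or purines of 63 bp. The strand of the skew was thus opposite to that of Gria1 peak 1, where G prevailed on the coding strand.

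The kainate receptor genes lay at both ends of the range. Grik2 (ENSMUSG00000056073) encodes GluK2, a subunit that forms channels by itself, and lies on the minus strand at chr10:48819266-49508572. Over its 689 kb no peak was found. The nearest one, at chr10:49629252-49629622, measured 0.371 kb, lay in no annotated gene and was 121 kb upstream, and the next one beyond the end of the gene was 367 kb away. The peak-free interval of 1177 kb held Grik2 and no other whole protein-coding gene, and 98.5% of intervals were shorter.

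Grik5 (ENSMUSG00000003378) encodes GluK5, a subunit of high affinity that forms channels together with other kainate subunits. It lies on the minus strand at chr7:25794872-25857388, over 62.5 kb, and held 8 peaks that covered 53.4% of it. Of the 4953 protein-coding genes of 30 to 100 kb, 36 or 0.727% held as many peaks, and 32 or 0.646% were covered as much. The peaks ran from 3.29 kb before the start to 3.44 kb beyond the end, a span of 69.2 kb of which 40.1 kb lay in peaks. They overlapped 13 of the 20 exons of its longest coding transcript.

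In the direction of transcription, Grik5 opened with its widest peak. Peak 1, at chr7:25847461-25860675, was 13.2 kb wide, covered the start and exons 1 to 6, and 0.858% of all peaks were as wide. It held the TCCC run of 48 bp printed above, in intron 1. Peak 2, at chr7:25839438-25840060, was 623 bp wide and lay in intron 11. Peak 3, at chr7:25826157-25835265, was 9.11 kb wide and overlapped exon 12, and peak 4, at chr7:25824471-25826076, followed 80 bp after it in intron 12 and was 1.61 kb wide. Introns 11 and 12 are the longest stretches without other exons in the map of the gene, and both carried peaks. Peak 5, at chr7:25807542-25811833, spanned exons 13 to 15 over 4.29 kb and held a CA run of 50 bp. Peak 6, at chr7:25801299-25805462, measured 4.16 kb in intron 15. Peak 7, at chr7:25798431-25799809, measured 1.38 kb and overlapped exons 18 and 19. Peak 8, at chr7:25791430-25797169, overlapped the last exon, and 2.30 kb of its 5.74 kb lay inside the gene. No tandem repeat of at least 16 bp was found in peaks 2, 4 and 7.

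Peaks of Grik5 overlapped no other annotated gene. Peak 1 stopped 1590 bp short of the start of Zfp574, a zinc finger gene on the opposite strand, which held no peak, nor did Pou2f2, which encodes a POU transcription factor and lies 20084 bp from Grik5. Beyond the end of Grik5, within 100 kb, Rabac1 held 1 peak and Arhgef1 held 2. Within 500 kb on both sides, 31 peaks lay outside Grik5, and 17 of 39 protein-coding genes held a peak. Cover by peaks was thus dense over Grik5 and ended before the genes upstream of it, but whether transcription changed there was not measured here.

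**Figure D3:**
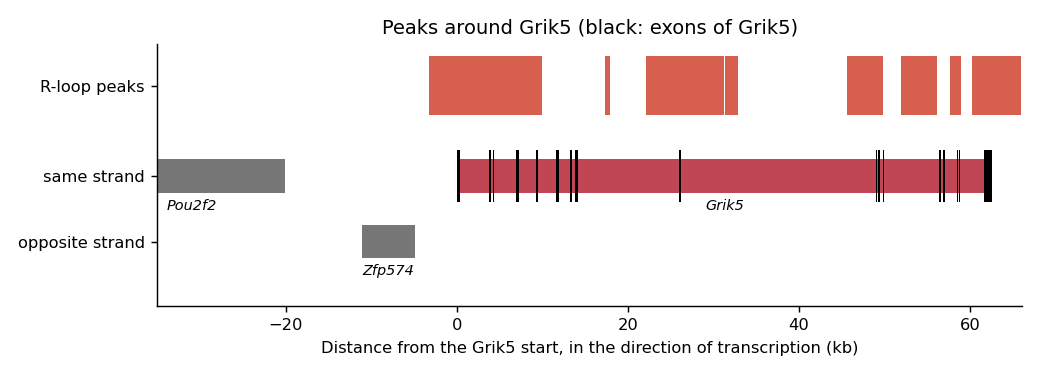
Peaks (top row), protein-coding genes on the strand of Grik5 (middle row) and on the other strand (bottom row) are drawn by distance in kb from the Grik5 start in its direction of transcription, with Grik5 exons in black. The 8 peaks run from before the start to beyond the end of Grik5, and Zfp574 and Pou2f2 upstream have none.

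Grid1 (ENSMUSG00000041078) encodes GluD1, a delta subunit that links to neurexins through secreted cerebellins. It is the longest of the 9 genes, at 764 kb, and lies on the plus strand at chr14:35633011-36396565. Its 2 peaks covered 0.169% of it, and 46.2% of the genes of 300 kb or more were covered as much. Peak 1, at chr14:35633346-35634246, began 335 bp after the gene start, was 901 bp wide and overlapped exon 1 and intron 1 of the transcript Grid1-001. With a GC content of 65.0% it was among the GC-rich peaks, since 1.78% of all peaks were as GC-rich. The number of CG dinucleotides in it was 0.751 of that expected from its base composition, which is the CpG ratio used below. Peak 2, at chr14:35794545-35794932, was 388 bp wide, lay in intron 3 at 162 kb from the start and had a GC skew of 0.521. It held no perfect repeat of 16 bp, but the printed stretch is built of TG units with interruptions and holds 44 G and 1 C in 100 bases.

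Grik5 was the 1 gene of the 9 whose start a peak covered, compared to 14.9% of all protein-coding genes. Over the 32 annotated transcript starts of the 9 genes, 1 lay in a peak. The 4 kb around a gene start, taken as 2 kb on each side, had a GC content of at least 60% in Grid1, of 50 to 60% in Gria1, Grin1, Grin2a, Grin2b and Grik5, and of less than 50% in Gria2, Gria4 and Grik2. Among all protein-coding genes, the start was in a peak in 40.0% of genes of the GC-rich class, in 27.1% of the middle class and in 7.61% of the GC-poor class. Grid1 had a GC content of 62.7% and a CpG ratio of 0.656 around its start, and of starts with a ratio of at least 0.6, 39.1% lay in a peak. In Grid1 the peak began just after the start. Grin2a had a GC content of 58.7% around its start, higher than 97.8% of protein-coding genes, and its nearest peak was 279 kb from the start.

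GC skew after the start was read for each receptor gene. With 1 of the 9 starts in a peak, its relation to peaks was not tested. It was computed here from base counts, whereas the skew classes of the study came from a Hidden Markov Model. In the first 1 kb of Gria1 the skew was 0.291, above that of 99.1% of protein-coding genes, and the start was not in a peak. In Grik5 the skew was -0.340, and 0.121% of protein-coding genes had a lower one. The Grik5 start lay in the widest peak of the 9 genes. The remaining genes lay between, from -0.0944 in Grin2b and -0.0831 in Grin1 to 0.0534 in Grin2a, 0.0565 in Grik2, 0.0752 in Grid1, 0.0830 in Gria4 and 0.135 in Gria2. The median over all protein-coding genes was 0.0390. DRIP-seq as done here does not show on which strand the RNA paired.

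**Figure D4:**
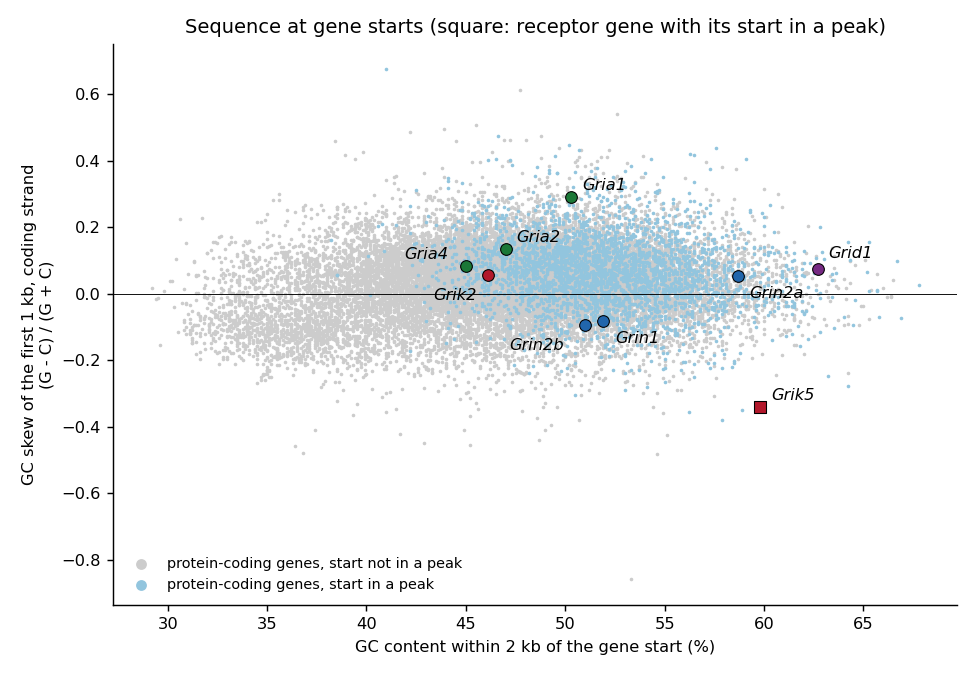
GC skew of the first 1 kb on the coding strand is plotted against GC content within 2 kb of the gene start (%) for protein-coding genes whose start is in a peak (blue) or not (grey), with the 9 receptor genes in colour. Grik5, the square, lies at 59.8% and -0.340, and Gria1 at 50.3% and 0.291 with its start outside peaks.

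GC content of the whole gene varied with the presence of a peak in the long genes. Of the 7 receptor genes of 100 kb or more, the 3 with the lowest GC content, Grik2 at 35.6%, Gria4 at 36.8% and Gria2 at 36.9%, held no peak. Grin2b and Grid1 at 43.4% and Gria1 at 44.7% held peaks, while Grin2a at 43.5% did not. When all protein-coding genes of 100 kb or more were ranked by GC content and split into 3 classes, a peak was found in 45.5% of the 800 genes of lowest, in 65.5% of the 800 of middle and in 80.3% of the 801 of highest GC content. Gria2, Gria4 and Grik2 fell in the lowest class. Grik5 had a GC content of 51.5%, above 94.0% of genes of 30 to 100 kb. GC content can also change how well DNA is amplified and sequenced, and its part in these counts was not tested.

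A tandem repeat of at least 24 bp with a unit of 2 to 4 bases was found in 9 of the 14 peaks, or 64.3%. Among all 22132 peaks 39.6% held one, and among windows of 600 bp placed over the genome 11.2% did. Windows of 600 bp placed over the 9 genes held one as often as the genome did, in 11.2% of 5361 windows. Since wide peaks have more room for a repeat, narrow ones were counted apart: of the 6 peaks under 1 kb, 3 held such a run, compared to 37.4% of all peaks under 1 kb. Of the 8 peaks of at least 1 kb, 6 held one, compared to 41.2% of all peaks of that width. Of these 8 peaks, 7 lay in Grik5. Tracts of at least 50 bp of purines or of pyrimidines were found in 6 of the 14 peaks, in 19.3% of all peaks, in 3.73% of the genome windows and in 3.47% of the windows of the 9 genes. By width, 2 of the 6 peaks under 1 kb held such a tract, compared to 20.6% of all peaks under 1 kb. It was found in 4 of the 8 peaks of at least 1 kb, compared to 18.4% of all peaks of that width. The units of the runs differed from peak to peak. Alternating G and T made up runs in Gria1 and Grid1, GGAA was repeated in Gria1 and TC in Grin2b, while the longest runs of the 5 Grik5 peaks with a run had 5 different units. The methods name uniquely mapped reads for the signal tracks, and whether peak calling used those alone is not given in the sources used here.

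**Figure D5:**
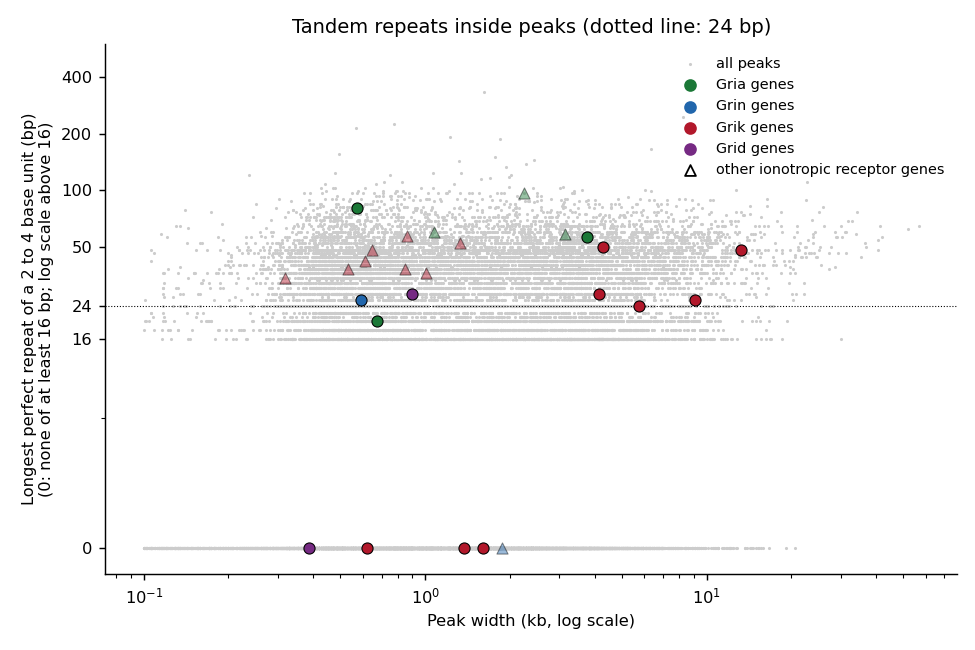
The longest perfect tandem repeat in a peak (bp, log scale above 16, with 0 for none of at least 16 bp) is plotted against peak width (kb, log scale) for all peaks (grey), the 14 peaks of the 9 genes (circles) and 12 peaks of 8 further ionotropic receptor genes (triangles). Of the circles, 9 lie at or above the dotted line at 24 bp, and the 80 bp run belongs to Gria1.

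Of 8 further ionotropic receptor genes, 5 held a peak, where 4.44 would be given by their length classes, with 12 peaks together. Grik4 held 4 peaks, Gria3 held 3, Grik1 and Grik3 held 2 each, Grin2d held 1, and Grin2c, Grin3a and Grin3b held none. Gria3 was the one of these with its gene start in a peak. Of the annotated transcript starts, 6 of 9 in Gria3 and 2 of 3 in Grin2d lay in a peak. With the 9 genes added, 9 of 17 held a peak, against 10.1 at the shares of their length classes. By subtype these were 4 of 5 kainate receptor genes against 3.21 at their length classes, 2 of 4 AMPA against 2.61, 2 of 7 NMDA against 3.63, and Grid1. Kainate receptor genes held 16 peaks, of which 8 were those of Grik5, while Grik2 held none. NMDA receptor genes held 2 peaks and were shorter, with a median length of 39.0 kb against 394 kb for kainate receptor genes. A repeat of at least 24 bp was found in 11 of the 12 peaks outside the 9 genes, compared to 39.6% of all peaks. Of those under 1 kb, 6 of 6 held one, compared to 37.4% of all peaks under 1 kb.

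Genes whose products work with the receptors held peaks as follows. Of 12 genes for auxiliary subunits, which escort AMPA and kainate receptors and set their gating, 9 held a peak, with 2 each in Cacng4, Cacng7 and Cacng8, against 6.46 at the shares of their length classes, and the longest without one was Cnih3. Of 13 genes for postsynaptic anchors, 10 held a peak against 7.62, led by Grip1, which binds AMPA receptors, with 12 peaks, Dlgap4 with 9 and Dlgap1 with 6, and Homer2 was the longest without one. Of 7 genes for metabotropic glutamate receptors, which act through G proteins, Grm5 and Grm8 held 1 peak each, 2 genes against 4.09, and Grm7 was the longest without one. Of 8 genes for glutamate transport and metabolism 4 held a peak against 3.96. Within that list the glial genes Slc1a3 and Slc1a2, which encode the uptake transporters GLAST and GLT-1, held 9 and 5 peaks, and Glul, which encodes glutamine synthetase, was covered by peaks over 80.2% of its length. Slc1a6, which encodes a transporter of Purkinje neurons, held 1 peak over its start. Slc17a6, Slc17a7 and Slc17a8, which encode the vesicular transporters of glutamatergic neurons, held none, nor did Slc1a1, the longest gene of the list without a peak, which encodes a neuronal uptake transporter.

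Other families of membrane proteins gave different counts. Of 19 GABA-A receptor genes, which encode the main inhibitory channels, Gabra4, Gabrg1, Gabrg3 and Gabrr2 held 1 peak each, 4 genes against 10.4 at the shares of their length classes, compared to 4 of 9 against 5.69 for the receptor genes described here. Gabrb1 was the longest of them without a peak. Each of 5 neurexin and neuroligin genes held a peak, with 7 in Nrxn2, 2 each in Nrxn3, Nlgn1 and Nlgn3 and 1 in Nlgn2, against 2.96. Of 94 potassium channel genes 34 held a peak against 42.8, with 13 in Kcnd3 and 4 in Kcnip3, and the longest without one was Kcnq5.

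Marker genes were read for the label of the cells, with the limit that a peak is not a measure of expression. Of 8 markers of neural stem and progenitor cells, 6 held a peak, Sox2, Sox9, Nes, Vim, Notch1 and Hes1, while Fabp7 and Pax6 did not, against 2.40 at the shares of their length classes. None of the 4 neuron markers Rbfox3, Snap25, Syt1 and Tubb3 held one, against 2.34. Of 3 oligodendrocyte markers Mbp held one, against 1.51, and of 3 microglia markers Csf1r did, against 1.10, so both counts lay near their length classes. Restriction digestion before the pull-down sets where fragments can end. Of the 28 edges of the 14 receptor peaks, 9 or 32.1% lay within 100 bp of a site of the 5 enzymes used, EcoRI, HindIII, BsrGI, SspI and XbaI, near the 27.7% of the 44264 edges of all peaks. Both edges of Gria1 peak 3 lay near such a site.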

How the data were processed

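DRIP-seq had been performed in 1 group of NSPCs, and 1 peak list of the antibody sample was used. Reads had been trimmed (Trim Galore 0.6.6), aligned to NCBI37/mm9 and freed of duplicates, and peaks called with a Hidden Markov Model. The list that the authors deposited and that was used here gives where each peak starts and ends (unit: genome position), and neither counts nor signal. The aligner and the way in which replicates were combined are not given in the sources used here. The input sample was not analysed here.

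Peaks were intersected with GENCODE M1 genes of mm9 (overlap from 1 bp), and sequences were read from mm9. Exons are those of the longest coding transcript. Consecutive windows of 600 bp were laid over the genome, of which every 10th was used, and over the 9 genes, of which each was used. The overlap step was tested on simulated data and recovered 200 of 200 genes. Python 3.11.15, numpy 2.4.6, scipy 1.17.1 and matplotlib 3.10.9 were used. The 9 genes and all gene lists were chosen with earlier results of these data known. Named genes were the 9 genes, genes at their nearest peaks, and in each list the 3 with the most peaks (ties included where few) and the longest without one. Neighbours of Grik5, other genes of the peak-free intervals and the remaining list genes named were chosen after their values were seen. Some genes are not reported here and were left out of the lists. Alternatives covered peak size, merging, overlap rule, gene limits and background genes.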

Additional observations from a re-analysis of the deposited data

How the results depend on the processing

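No paired analysis was possible because 1 list without replicates was used. With peaks of at least 1 kb alone, 2 of the 9 genes, Gria1 and Grik5, held a peak in place of 4, with 8 peaks in place of 14. The count then fell to 1 in Gria1 and to 0 in Grin2b and Grid1. The share of genes with a peak was 31.8% for peaks of at least 1 kb, 34.9% for peak midpoints inside the gene, 43.1% for genes extended by 2 kb, 27.1% for all annotated genes and 40.6% for autosomes. Of 45 values for single receptor genes, 42 stayed within 1.5 times of the reported count or equal to it. The 3 that moved came from the limit on peak size. The 45 include those of the 5 genes without a peak, whose nearest peaks lay at least 31.2 kb away. Their counts of 0 could not change under any of these settings, so the 42 does not measure stability. The list has no depth, so how much DRIP signal a gene without a peak could carry is unknown.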
